A study of Mus musculus with 12 samples.

Results

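The comparison described here is that of female Nsd2 KO with female WT mouse brains at E15.5, a stage of embryonic neurogenesis, which rests on 6 of the 12 libraries of the study, 3 for each genotype. WT1, WT2 and WT3 came from wild-type females and KO1, KO2 and KO3 from females that carried the Nsd2 knockout. All animals were on the C57BL/6 background, the tissue is named as brain without the extent of the dissection, and the labels name no treatment. The knockout was made with CRISPR/Cas9, removes the whole Nsd2 coding sequence in every cell of the body, and ends in death within a day of birth, so a difference between genotypes can arise in any cell of the brain or outside it. In each library the read count of every gene was measured, and 18851 of the 46078 genes of the deposited table reached at least 10 counts in at least 3 of the 6 libraries and were tested. A further 17594 genes were at 0 in all 6 libraries, and 9633 were detected below that minimum and are not described. In such bulk tissue, fewer cells of a type and less RNA per cell cannot be told apart.

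NSD2 is a methyltransferase that places dimethylation on lysine 36 of histone H3 (H3K36me2), a mark that is generally linked to active transcription and also lies between genes. In the E15.5 brain the study found the part placed by NSD2 mainly in quiescent chromatin, which has little signal of other histone marks. In the embryonic brain at this stage neurons are being born, migrate and begin to express the receptors, channels and adhesion molecules of the synapse. The clustered protocadherins are among these adhesion molecules. Their alpha, beta and gamma genes lie side by side on one chromosome, and each neuron uses a small and partly random choice of them as a surface identity.

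The 6 libraries held 40398665 to 59304196 counts, and totals did not separate the genotypes (two-sided exact permutation test, p = 0.6, where 0.1 is the smallest p that 3 against 3 allows). Replicates of a genotype correlated at 0.9695 to 0.9837 over log2 CPM (CPM, counts scaled to a library's size after TMM). Markers of neurons summed to between 9840 and 11000 CPM in every library. The libraries differed in their content of Hox genes, which mark hindbrain and spinal cord: these summed to 274, 298 and 267 CPM in WT3, KO2 and KO3, and to 2.95, 1.23 and 6.59 CPM in WT1, WT2 and KO1. The sample label names the brain alone for all 6. The female-specific RNA Xist was present in all 6 libraries, at 1107, 1361 and 529.5 CPM in the WT and 1901, 1978 and 1544 CPM in the KO libraries, and the Y-linked genes Ddx3y, Eif2s3y, Kdm5d and Uty together gave 24 counts in WT1 and 0 in the other libraries. WT3 held the least Xist, every KO library lay above every WT library, and the difference did not pass the test (0.86 ± 0.315 (SE, adjusted p = 0.621) on the log2 scale, edgeR).

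Nsd2 transcripts were nearly absent from each KO brain. The gene, listed as Whsc1 (ENSMUSG00000057406), lies on chromosome 5 from 33820725 to 33897975 of GRCm38, and its level was 408, 409 and 344 CPM in the WT and 1.46, 1.48 and 2.64 CPM in the KO libraries. This was 387 ± 37.1 CPM in WT and 1.86 ± 0.678 CPM in KO brains (SD, n = 3 per genotype), and a log2 ratio of -7.68 ± 0.263 (SE, adjusted p = 5.04e-05) in edgeR's quasi-likelihood test, which is the log2 of the fitted KO to WT ratio, so that 0.487% of the WT level remained. The labels of all 6 libraries therefore match their Nsd2 level. Actb, which encodes beta-actin and serves as the reference of quantitative PCR, was at 3518, 3921 and 3911 CPM in the WT and 4055, 3782 and 3922 CPM in the KO libraries, with a log2 ratio of 0.051 ± 0.125 (SE, adjusted p = 0.946).

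Besides Nsd2, 3 genes were differentially expressed in females: 1 fell and 2 rose, at a Benjamini-Hochberg adjusted p under 0.05 over all genes tested. These are 0.00531% and 0.0106% of the 18850 genes, 0.0159% together. At an unadjusted p under 0.05 there were 733 lower genes (3.89%) and 675 higher genes (3.58%), 1408 in all (7.47%), against 942 that 5% of the genes would make up. The 3 KO values lay below all 3 WT values for 1170 genes (6.21%) and above them for 1498 (7.95%). The quartiles of all log2 fold changes were -0.138 and 0.142, and the median standard error of a fold change was 0.156. Among genes with a mean of 1 CPM or more, 58 had a log2 fold change under -1 and 112 one above 1, and 3 of these were called. DESeq2 called 130 lower and 54 higher genes on the same counts, while edgeR called none without WT1, without WT2 or without KO1.

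Lrfn5, which encodes a leucine-rich repeat and fibronectin domain protein of the synaptic membrane, was the gene that fell. It was at 66.7, 67.9 and 66.6 CPM in the WT and 21.7, 27.2 and 17.2 CPM in the KO libraries. The WT libraries were nearly equal, the KO libraries varied more, and no KO library came near a WT one. The log2 fold change was -1.61 ± 0.155 (SE, adjusted p = 0.031), so 32.8% of the WT level remained. The gene spans 335.193 kb on chromosome 12 (61523150 to 61858342, plus strand). Its call was lost without WT1, WT2 or KO1 (adjusted p = 0.2, 0.158 and 0.365) and with the Hox level in the model (0.125), while the fold change stayed between -1.79 and -1.45.

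Pcdhb10 and Pcdhb11, neighbouring protocadherin genes of the beta cluster on chromosome 18, were the 2 genes that rose. Pcdhb10 was at 4.04, 4.01 and 3.63 CPM in the WT and 10.7, 10.6 and 9.54 CPM in the KO libraries, a log2 ratio of 1.40 ± 0.128 (SE, adjusted p = 0.0258) in edgeR. Pcdhb11 was at 6.42, 5.89 and 4.84 CPM in the WT and 16.1, 16.3 and 15.1 CPM in the KO libraries, a log2 ratio of 1.47 ± 0.134 (SE, adjusted p = 0.0258). In both genes the 3 libraries of a genotype lay close together and the genotypes were far apart, with KO levels 2.638 and 2.774 times those of WT. Both calls were lost without WT1, WT2, KO1 or KO2 (adjusted p = 0.098 to 0.363), with fold changes of 1.37 to 1.42 for Pcdhb10 and 1.45 to 1.56 for Pcdhb11. With the Hox level in the model, an alternative added once the data had been seen, Pcdhb11 kept its call (adjusted p = 0.0467) and Pcdhb10 did not (0.0648). Both genes have related beta genes beside them, between which reads may have been split, so the value of a single beta gene is less certain than that of the cluster. How alike their sequences are was not measured here.

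**Figure D1:**
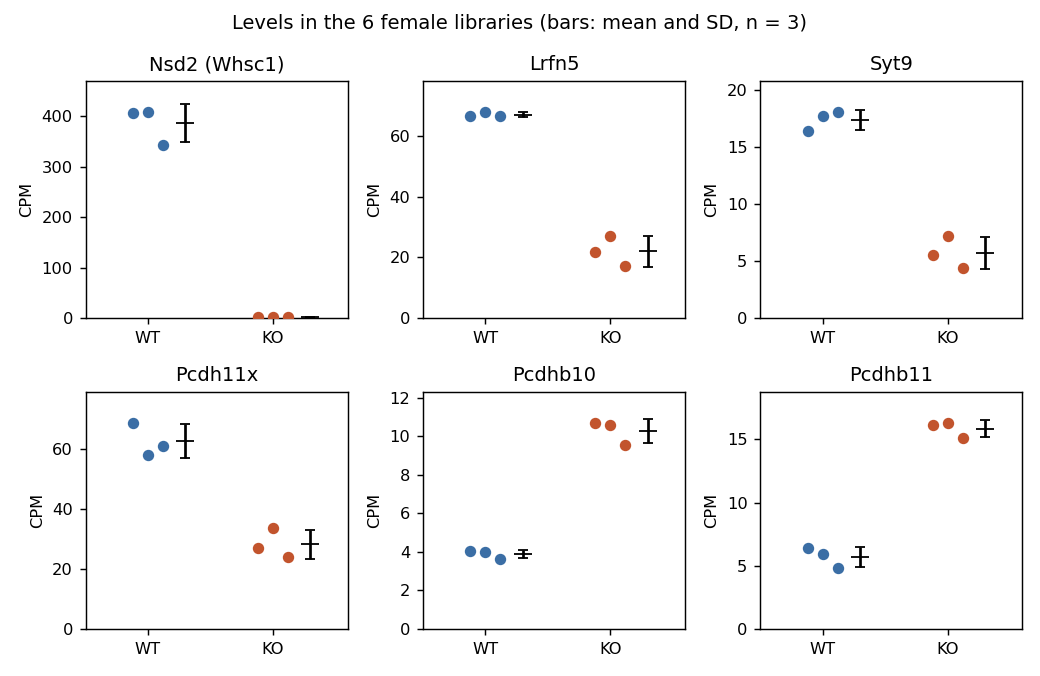
Level of Nsd2 (Whsc1), Lrfn5, Syt9, Pcdh11x, Pcdhb10 and Pcdhb11 in each of the 6 female libraries, in CPM on a linear axis from 0. Points are libraries and bars the mean and SD of 3. In all 6 panels the WT points and the KO points do not overlap, as for Lrfn5 with 66.6 to 67.9 CPM in WT and 17.2 to 27.2 CPM in KO brains.

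Lrfn5, Syt9, Ugt8a and Dlgap1 were also assayed by quantitative PCR in the study, in KO brains of males and WT brains mostly of males, so not for the female comparison, and the primer pairs show which junction of each transcript was amplified. They are shown because Lrfn5 carries the single call among lower genes and the other genes are described below. All primers are written 5′ to 3′ in lower case, and were matched to GENCODE M21 transcripts on GRCm38.
Lrfn5 forward: cttcacggtagtaaggaactctcca
Lrfn5 reverse: gctatgccaatgagaaacaggtaaa
Syt9 forward: ttggtcaggtggtggtgga
Syt9 reverse: ccgttggaagatagcagagtgaa
Ugt8a forward: tggctttgtcctggtgtcttt
Ugt8a reverse: gtttcctaggttctttggtttggtt
Dlgap1 forward: tcaccaaagttccgctcca
Dlgap1 reverse: gttcacctccatctcgctcac
The Lrfn5 pair spans exons 2 and 3 of 4 (chromosome 12, 61669620 to 61839468) and gives 96 bases, partly or wholly outside the coding sequence. The Syt9 pair spans exons 3 and 4 of 7 (chromosome 7, 107436733 to 107502144) and gives 141 coding bases. The Ugt8a pair spans exons 2 and 3 of 5 (chromosome 3, minus strand, 125874192 to 125875596) and gives 142 coding bases. The Dlgap1 pair spans exons 7 and 8 of 14 (chromosome 17, 70657572 to 70662589) and gives 81 coding bases. The counts described here cover whole genes and not these junctions.

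Beyond the called genes, the 15 lower genes of smallest p whose libraries did not overlap included 10 members of the 12 lists of protocadherin, synapse, receptor and channel genes, which hold 422 (2.24%) of the genes tested and were chosen with earlier results known, and none of the 15 passed the test. Syt9, a synaptotagmin that senses calcium in vesicle release, was nearest to a call. It was at 16.4, 17.6 and 18.04 CPM in the WT and 5.502, 7.198 and 4.38 CPM in the KO libraries, a log2 ratio of -1.61 ± 0.179 (SE, adjusted p = 0.0689) in edgeR. The highest KO library held less than any WT library by a wide margin. Pcdh11x, an X-linked non-clustered protocadherin, was at 68.8, 58.04 and 61.2 CPM in the WT and 26.9, 33.6 and 23.99 CPM in the KO libraries, a log2 ratio of -1.15 ± 0.135 (SE, adjusted p = 0.0842). The gap between the lowest WT and the highest KO library was wider than the range within either genotype. Grin3a, an NMDA receptor subunit, was at 78.8, 74.9 and 78.4 CPM in the WT and 35.3, 44.5 and 31.3 CPM in the KO libraries, a log2 ratio of -1.06 ± 0.129 (SE, adjusted p = 0.0925). Its WT libraries lay within a narrow range and KO2 was the highest of the KO libraries, as it was for Lrfn5, Syt9 and Pcdh11x.

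Gria4, an AMPA receptor subunit, was at 62.7, 59.3 and 65.1 CPM in the WT and 35.2, 41.6 and 32.2 CPM in the KO libraries, a log2 ratio of -0.78 ± 0.108 (SE, adjusted p = 0.118) in edgeR. Kcnd2, the pore of an A-type potassium channel, was at 60.4, 58.4 and 62.6 CPM in the WT and 39.02, 42.4 and 34.9 CPM in the KO libraries, a log2 ratio of -0.64 ± 0.0923 (SE, adjusted p = 0.136). Both receptor and channel were again lowest in KO3. Rims4, a protein of the presynaptic active zone, was at 57.7, 51.5 and 54.6 CPM in the WT and 35.8, 37.3 and 36.4 CPM in the KO libraries, a log2 ratio of -0.58 ± 0.0785 (SE, adjusted p = 0.117). Here the 3 KO libraries were nearly equal. Slitrk4 and Slitrk5 encode transmembrane organizers of synapses. Slitrk4, on the X chromosome, was at 29.3, 24.6 and 23.9 CPM in the WT and 12.8, 13.7 and 8.72 CPM in the KO libraries, a log2 ratio of -1.15 ± 0.176 (SE, adjusted p = 0.168). Slitrk5 was at 69.9, 65.7 and 62.05 CPM in the WT and 40.2, 46.8 and 43.1 CPM in the KO libraries, a log2 ratio of -0.60 ± 0.0898 (SE, adjusted p = 0.155), so the gap between genotypes was larger for Slitrk4 than for Slitrk5 on the fitted scale.

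Of the other lower genes in this group, Otud7a encodes a deubiquitinase, Ugt8a the enzyme that makes galactosylceramide for myelin, and Pcdha6 and Pcdhga10 clustered protocadherins. Otud7a was at 14.3, 13.6 and 16.1 CPM in the WT and 7.98, 8.35 and 7.36 CPM in the KO libraries, with a log2 ratio of -0.90 ± 0.116 (SE, adjusted p = 0.117) in edgeR. Ugt8a, a gene of the oligodendrocyte lineage, was at 5.54, 5.26 and 6.29 CPM in the WT and 2.001, 2.96 and 2.07 CPM in the KO libraries, with a log2 ratio of -1.28 ± 0.204 (SE, adjusted p = 0.182). Its level in KO brains was 41.09% of that in WT, whereas the summed markers of the oligodendrocyte lineage were 173, 172 and 238 CPM in WT and 174, 195 and 145 CPM in KO brains, with overlap. The log2 fold changes of the remaining 5 were -0.73 ± 0.0969 (SE) for Tmem28, -0.88 ± 0.118 (SE) for Pcdha6, -0.69 ± 0.104 (SE) for Pcdhga10, -1.71 ± 0.266 (SE) for Tchh, which encodes trichohyalin, and -0.97 ± 0.158 (SE) for Tmem200c, at adjusted p of 0.117 to 0.191. Tchh had the largest fold change of the 15 and the lowest level, at 1.65, 1.58 and 1.57 CPM in the WT and 0.477, 0.588 and 0.407 CPM in the KO libraries.

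Among the 10 higher genes of smallest p with no overlap, 4 were beta protocadherins (Pcdhb2, Pcdhb9, Pcdhb12 and Pcdhb14), 2 were small nucleolar RNAs (Snora74a and Gm25835) and 2 encoded proteins that bind spliceosomal RNA (Snrpe and Lsm8). None passed the test. Nab2, a corepressor of EGR transcription factors, was at 5.599, 5.99 and 6.24 CPM in the WT and 11.2, 10.4 and 10.3 CPM in the KO libraries, a log2 ratio of 0.84 ± 0.116 (SE, adjusted p = 0.118) in edgeR. The KO libraries lay within a CPM of each other and the WT libraries well below them. Snrpe was at 27.5, 30.7 and 31.3 CPM in the WT and 43.4, 42.5 and 43.3 CPM in the KO libraries, a log2 ratio of 0.53 ± 0.0817 (SE, adjusted p = 0.168), and Lsm8 was at 18.4, 20.9 and 18.1 CPM in the WT and 29.3, 27.2 and 28.1 CPM in the KO libraries, a log2 ratio of 0.56 ± 0.0932 (SE, adjusted p = 0.19). The differences in Snrpe and Lsm8 were small, and the replicates of each genotype lay close together. Hoxd8 was at 0.0364, 0.1003 and 0.06603 CPM in the WT and 0.546, 1.18 and 0.647 CPM in the KO libraries, a log2 ratio of 3.54 ± 0.528 (SE, adjusted p = 0.155), and the other Hox genes did not order the libraries by genotype. It had 2, 4 and 4 counts in the WT and 24, 50 and 35 in the KO libraries, so it reached the minimum of 10 counts through the KO libraries alone, and without 1 of them it was not tested.

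**Figure D2:**
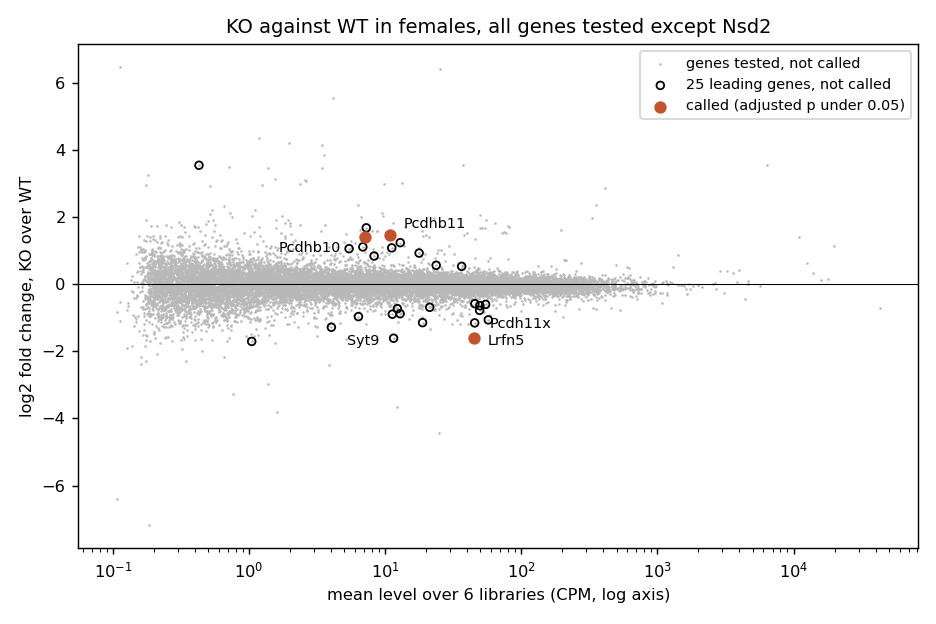
Log2 fold change of KO over WT against the mean level over the 6 female libraries (CPM, log axis) for each gene tested except Nsd2. The 3 called genes are filled, the 25 leading genes that were not called are open circles, and the grey points that reach the largest fold changes are low or variable genes, whose replicates did not lie close enough for a call.

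The beta genes of the clustered protocadherins were higher in KO brains along the whole beta cluster, while alpha genes went in both directions and most gamma genes were lower. Of the 22 beta genes 21 were tested, 2 rose, and 18 were higher at an unadjusted p under 0.05 (background 3.58%). All 21 fold changes were above 0, with a median of 0.68 on the log2 scale, against 0.0073 over all genes. For 18 of the 21 the KO libraries all lay above the WT libraries (background 7.95%). Summed over the genes the level was 238, 201 and 158 CPM in the WT and 336, 334 and 316 CPM in the KO libraries. WT3 was lowest and the 3 KO libraries were nearly equal. The summed level differed between genotypes in every pair of libraries, and 0.1 is the smallest two-sided exact permutation p such a design can give, which it reached.

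Along the chromosome the fold changes were largest in the middle of the beta cluster. At its start Pcdhb2 had 1.11 ± 0.178 (SE, adjusted p = 0.182) in edgeR, and Pcdhb3 to Pcdhb8 had 0.38 to 0.72. From Pcdhb9 to Pcdhb16 all 8 genes lay between 0.91 and 1.47. Pcdhb14 was at 9.16, 7.75 and 6.14 CPM in the WT and 20.1, 19.1 and 15.2 CPM in the KO libraries, a log2 ratio of 1.24 ± 0.175 (SE, adjusted p = 0.132), and Pcdhb16 was at 21.8, 16.997 and 11.9 CPM in the WT and 34.6, 35.9 and 32.7 CPM in the KO libraries, a log2 ratio of 1.03 ± 0.198 (SE, adjusted p = 0.284). At the other end Pcdhb17 to Pcdhb22 had 0.34 to 0.68. Pcdhb19, the most abundant of these by counts, was at 31.7, 25.97 and 17.8 CPM in the WT and 37.99, 38.8 and 35.9 CPM in the KO libraries, a log2 ratio of 0.58 ± 0.189 (SE, adjusted p = 0.584). Its WT libraries ranged widely, with WT1 close to the KO libraries. The 3 tested beta genes whose libraries overlapped were Pcdhb4, Pcdhb20 and Pcdhb22, with 0.38 ± 0.197 (SE), 0.34 ± 0.153 (SE) and 0.36 ± 0.185 (SE).

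Of the 14 alpha entries tested, which share the exons at their 3′ end so that reads may be split between them, none passed the test, 7 were lower and 3 higher at an unadjusted p under 0.05 (background 3.89% and 3.58%), and the median log2 fold change was -0.0024, or -0.0821 to 0.0707 with 1 library left out. Pcdha6 was at 15.54, 18.3 and 16.2 CPM in the WT and 8.44, 8.798 and 9.94 CPM in the KO libraries, a log2 ratio of -0.88 ± 0.118 (SE, adjusted p = 0.117) in edgeR, and Pcdha12 was at 19.6, 19.5 and 21.3 CPM in the WT and 12.3, 9.86 and 13.5 CPM in the KO libraries, a log2 ratio of -0.76 ± 0.131 (SE, adjusted p = 0.212). Pcdhac2, a C-type gene at the end of the alpha cluster, was at 21.1, 25.7 and 23.97 CPM in the WT and 17.3, 17.5 and 15.7 CPM in the KO libraries, a log2 ratio of -0.49 ± 0.106 (SE, adjusted p = 0.316). In the other direction, Pcdha2 was at 18.7, 18.1 and 20.3 CPM in the WT and 32.4, 35.99 and 21.8 CPM in the KO libraries, a log2 ratio of 0.66 ± 0.176 (SE, adjusted p = 0.466). KO3 lay close to the WT libraries in Pcdha2, and apart from them in the other 3.

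Of the 22 gamma entries, which likewise share their last exons, none passed the test, 10 were lower and 1 was higher at an unadjusted p under 0.05 (background 3.89% and 3.58%), with a median of -0.30. Pcdhgb5 was at 22.8, 31.5 and 19.8 CPM in the WT and 13.1, 11.2 and 12.97 CPM in the KO libraries, a log2 ratio of -0.99 ± 0.174 (SE, adjusted p = 0.233) in edgeR. Pcdhga11 was at 43.9, 52.3 and 45.2 CPM in the WT and 31.4, 26.8 and 32.9 CPM in the KO libraries, a log2 ratio of -0.63 ± 0.109 (SE, adjusted p = 0.219), and Pcdhga10 was at 28.5, 26.7 and 23.4 CPM in the WT and 16.3, 15.4 and 17.1 CPM in the KO libraries, a log2 ratio of -0.69 ± 0.104 (SE, adjusted p = 0.16). In these 3 genes no KO library reached a WT library. Pcdhgc3, a C-type gene, was the higher one, at 113, 122 and 111 CPM in the WT and 131, 137 and 136 CPM in the KO libraries, a log2 ratio of 0.22 ± 0.0786 (SE, adjusted p = 0.594). Pcdhgb8 stood apart for another reason: KO1 held 5.93 CPM where the other 5 libraries held 62.9 to 83.5 CPM. The median of the gamma list was -0.18 without WT2, -0.44 without WT3 and -0.173 with the Hox level in the model.

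**Figure D3:**
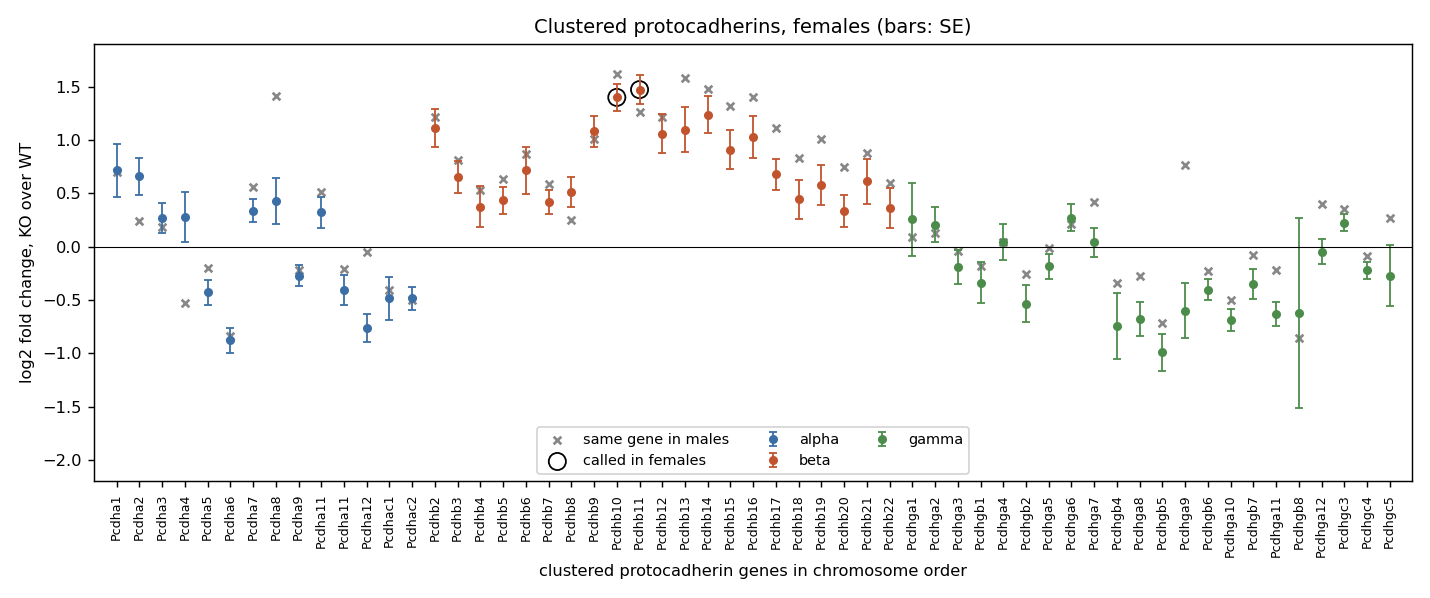
Log2 fold change of KO over WT with its SE for the alpha, beta and gamma protocadherin entries in chromosome order, in females (coloured points) and in males (grey crosses, no error shown), labelled with the names of the GENCODE annotation, which gives Pcdha11 to 2 entries. All 21 beta genes are above 0, with Pcdhb10 and Pcdhb11 circled as called, while most gamma entries lie below 0.

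The 12 non-clustered protocadherins, single genes elsewhere in the genome, were lower on the whole: none passed the test, 7 were lower at an unadjusted p under 0.05 and none higher (background 3.89% and 3.58%), and the median was -0.32. After Pcdh11x came Pcdh7, at 131, 122.7 and 121 CPM in the WT and 72.6, 99.8 and 73.998 CPM in the KO libraries, a log2 ratio of -0.61 ± 0.13 (SE, adjusted p = 0.31) in edgeR. Its KO2 library was nearer to the WT libraries than KO1 and KO3 were. Pcdh1 was at 108, 115 and 98.6 CPM in the WT and 90.1, 84.2 and 88.04 CPM in the KO libraries, a log2 ratio of -0.29 ± 0.0853 (SE, adjusted p = 0.518). The genes of the beta cluster and the non-clustered genes thus had medians of opposite sign.

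Genes that encode synaptic adhesion molecules were shifted towards lower levels in KO brains, mostly by amounts too small for a call. Of 68 tested 1 fell, Lrfn5, and none rose. At an unadjusted p under 0.05 there were 28 lower (background 3.89%) and 1 higher, 63 fold changes were below 0, and the median was -0.24. Cntnap5c, a contactin-associated protein, was at 5.11, 5.62 and 3.27 CPM in the WT and 1.68, 1.98 and 1.16 CPM in the KO libraries, a log2 ratio of -1.54 ± 0.285 (SE, adjusted p = 0.282) in edgeR. Nrxn2, a neurexin that joins presynaptic to postsynaptic membranes, was at 521, 479.7 and 482 CPM in the WT and 408, 374 and 430.1 CPM in the KO libraries, a log2 ratio of -0.29 ± 0.0991 (SE, adjusted p = 0.586). Nrxn2 shows the more usual size, a small difference. Its genotypes lay apart, as they did for 28 lower genes (background 6.21%) and 1 higher gene (background 7.95%) of the 68, while the other genes overlapped. Flrt3, a ligand of latrophilins and the 1 higher gene, was picked once its values were known, and was at 51.2, 50.6 and 53.7 CPM in the WT and 59.9, 57.5 and 60.5 CPM in the KO libraries, a log2 ratio of 0.19 ± 0.0734 (SE, adjusted p = 0.625). Csmd3, a large transmembrane protein of neurons with complement control domains, was at 67.6, 54.9 and 38.97 CPM in the WT and 28.1, 30.9 and 27.8 CPM in the KO libraries, a log2 ratio of -0.90 ± 0.183 (SE, adjusted p = 0.284), and Sorbs2, an adaptor of the cytoskeleton, was at 185, 208 and 134 CPM in the WT and 175, 165 and 182 CPM in the KO libraries, a log2 ratio of -0.011 ± 0.154 (SE, adjusted p = 0.991). The Sorbs2 libraries overlapped, and WT3 was the lowest in both genes among WT.

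On the postsynaptic side, 41 scaffold and receptor auxiliary proteins had a median of -0.28, with 22 lower and none higher at an unadjusted p under 0.05 (background 3.89% and 3.58%), and none passed the test. Dlgap1, a scaffold that links PSD-95 to SHANK proteins, was at 51.1, 60.02 and 57.6 CPM in the WT and 26.5, 30.96 and 16.4 CPM in the KO libraries, a log2 ratio of -1.19 ± 0.214 (SE, adjusted p = 0.282) in edgeR. KO3 was well under the other KO libraries, which were well under WT. Cacng8, an auxiliary protein of AMPA receptors, was at 30.4, 32.4 and 29.7 CPM in the WT and 23.3, 20.5 and 23.4 CPM in the KO libraries, a log2 ratio of -0.46 ± 0.0915 (SE, adjusted p = 0.284), and Shisa6, another, was at 25.2, 25.8 and 21.7 CPM in the WT and 17.5, 17.6 and 15.2 CPM in the KO libraries, a log2 ratio of -0.53 ± 0.11 (SE, adjusted p = 0.284). Among 59 genes of presynaptic release the median was -0.16, with 12 lower and none higher at an unadjusted p under 0.05 (background 3.89% and 3.58%), and the median was -0.095 without KO3. Rims1, a scaffold of the active zone, was at 62.5, 64.7 and 56.6 CPM in the WT and 42.7, 45.97 and 36.2 CPM in the KO libraries, a log2 ratio of -0.56 ± 0.107 (SE, adjusted p = 0.282), next by p after Syt9 and Rims4.

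Receptors and channels followed the same direction, and none of them passed the test. Of 25 glutamate receptor subunits 13 were lower and none higher at an unadjusted p under 0.05 (background 3.89% and 3.58%), with a median of -0.36, the lowest of the 5 receptor and channel lists. Of 20 GABA and glycine receptor genes 7 were lower and none higher (background 3.89% and 3.58%), with a median of -0.28. Glra3, a glycine receptor subunit, was at 0.982, 1.35 and 1.93 CPM in the WT and 0.637, 0.306 and 0.517 CPM in the KO libraries, a log2 ratio of -1.54 ± 0.383 (SE, adjusted p = 0.416) in edgeR. KO2 was the lowest library, and no KO library reached a WT library.

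Of 46 voltage-gated potassium channel genes 13 were lower and none higher at an unadjusted p under 0.05 (background 3.89% and 3.58%, median -0.28), and of 53 sodium, calcium and TRP channel genes 15 were lower and none higher (median -0.25). Dpp6 and Dpp10 encode auxiliary subunits of the channel formed by Kcnd2. Dpp6 was at 150.5, 144 and 138 CPM in the WT and 105, 112 and 105 CPM in the KO libraries, a log2 ratio of -0.43 ± 0.0794 (SE, adjusted p = 0.282) in edgeR. Dpp10 was at 49.8, 40.7 and 56.4 CPM in the WT and 18.4, 29.1 and 16.8 CPM in the KO libraries, a log2 ratio of -1.19 ± 0.219 (SE, adjusted p = 0.282). Kcnd2, Dpp6 and Dpp10 were each lower in every KO than in every WT library. Other subunits of this channel are not described here. Among the 46 potassium channel genes the libraries did not overlap for 13 lower (background 6.21%) and 1 higher (background 7.95%), and 7 fold changes were above 0. Trpc5, a cation channel, was at 8.05, 7.09 and 8.04 CPM in the WT and 4.46, 4.78 and 2.99 CPM in the KO libraries, a log2 ratio of -0.93 ± 0.195 (SE, adjusted p = 0.296), and Cacna1a, the pore of a presynaptic calcium channel, was at 74.4, 70.02 and 61.8 CPM in the WT and 50.5, 53.7 and 48.2 CPM in the KO libraries, a log2 ratio of -0.44 ± 0.0941 (SE, adjusted p = 0.31). Of 33 genes of cyclic AMP signalling 7 were lower and none higher (background 3.89% and 3.58%), with a median of -0.16, led by the adenylyl cyclases Adcy2, with -1.04 ± 0.195 (SE, adjusted p = 0.282), and Adcy5, with -0.49 ± 0.094 (SE, adjusted p = 0.282). Among 41 serotonin, dopamine and neuropeptide receptors 8 were lower and 1 higher (background 3.89% and 3.58%, median -0.18, and -0.294 without WT1, -0.0862 without WT3, -0.31 without KO2 and -0.267 with the Hox level), led by Sstr4, a somatostatin receptor, with -1.31 ± 0.267 (SE, adjusted p = 0.284), and Htr1a, a serotonin receptor, with -1.02 ± 0.243 (SE, adjusted p = 0.375).

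Among genes of neurotrophin signalling and axon guidance none passed the test. Of 15 neurotrophin and neuregulin genes 3 were lower and none higher at an unadjusted p under 0.05 (background 3.89% and 3.58%, median -0.17). Bdnf, a neurotrophin, was at 5.44, 4.31 and 4.92 CPM in the WT and 2.46, 2.71 and 2.92 CPM in the KO libraries, a log2 ratio of -0.86 ± 0.173 (SE, adjusted p = 0.284) in edgeR, and Nrg3, a ligand of ErbB4, was at 45.2, 40.1 and 34.6 CPM in the WT and 23.03, 25.9 and 15.8 CPM in the KO libraries, a log2 ratio of -0.89 ± 0.185 (SE, adjusted p = 0.295). Neither gene had overlapping libraries. Of 71 axon guidance genes 5 were lower and 1 higher (background 3.89% and 3.58%, median -0.11, and -0.0633 without WT1, -0.0649 without KO2 and -0.0299 with the Hox level), led by the ephrin receptors Ephb6, with -0.66 ± 0.132 (SE, adjusted p = 0.284), and Epha6, with -0.90 ± 0.214 (SE, adjusted p = 0.375).

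Neuron markers differed less between genotypes than the synaptic lists. Of 18, none passed the test, 2 were lower at an unadjusted p under 0.05 (background 3.89%) and the median was -0.11. Their summed level was 11000, 10600 and 10500 CPM in WT and 10000, 9940 and 9840 CPM in KO brains, all KO libraries under all WT libraries. Tubb3, a neuronal tubulin, was at 1335, 1375 and 1598 CPM in the WT and 1440.1, 1355 and 1454 CPM in the KO libraries, -0.02 ± 0.119 (SE), and Map2, a microtubule protein of dendrites, had -0.15 ± 0.126 (SE). The part of the neuron content in the lower synaptic genes was not tested.

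**Figure D4:**
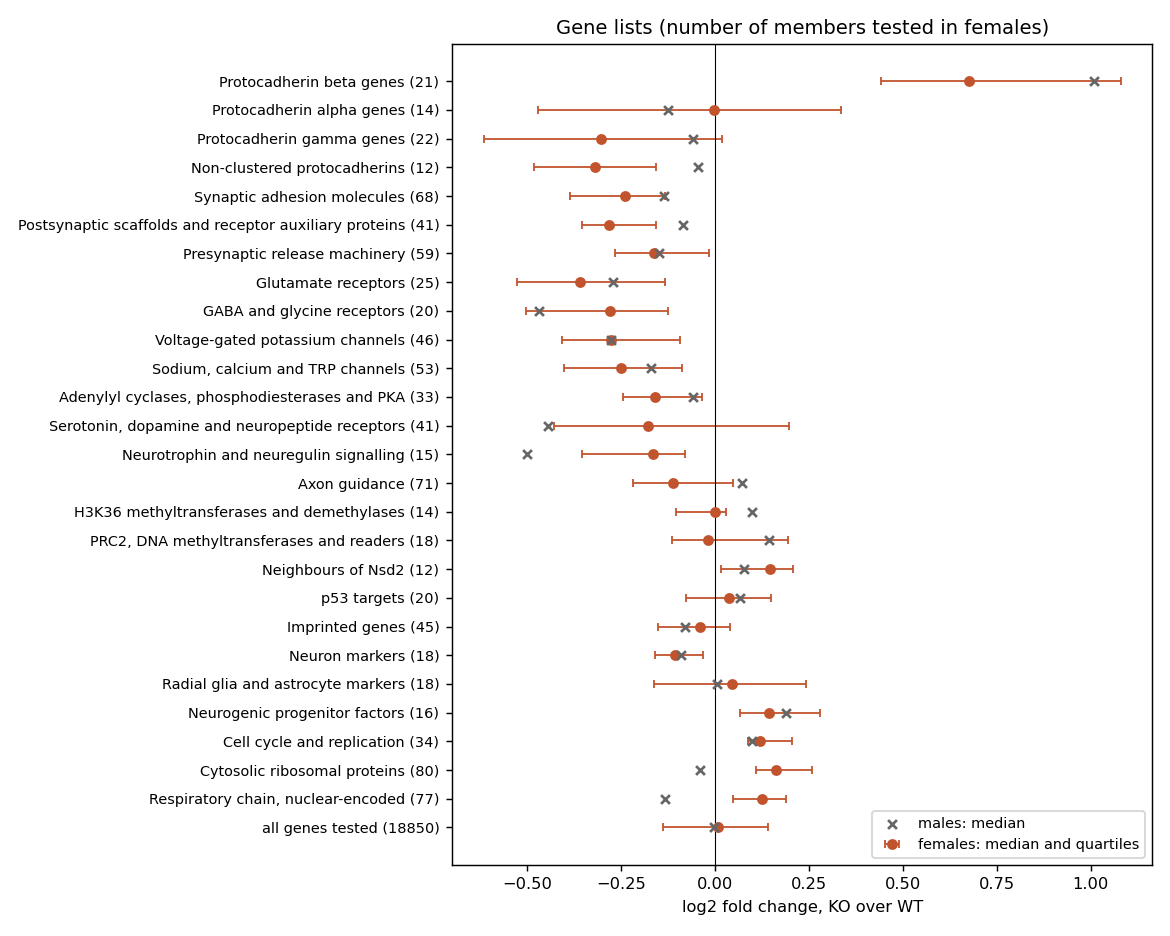
Median and quartiles of the log2 fold change of KO over WT within gene lists in females (points and bars), with the median in males (crosses) and the number of members tested in females in parentheses. The beta protocadherins stand at 0.68, the lists of synaptic, receptor and channel genes at -0.36 to -0.16, and all genes tested at 0.0073.

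Of the other genes that place or remove H3K36 methylation none passed the test. Of 14 other methyltransferases and demethylases of H3K36, none was past an unadjusted p of 0.05 and the median was -0.0016. Nsd1, another H3K36 methyltransferase of the NSD family, was at 497, 497 and 328 CPM in the WT and 425, 379 and 417 CPM in the KO libraries, a log2 ratio of -0.11 ± 0.166 (SE, adjusted p = 0.902) in edgeR, with WT3 below the KO libraries. Whsc1l1, which encodes NSD3, had -0.15 ± 0.111 (SE, adjusted p = 0.788), and was picked once its values were known. Of 18 genes of PRC2, DNA methylation and its readers 4 were higher and none lower at an unadjusted p under 0.05 (background 3.58% and 3.89%), all by small amounts. The median of the 18 was -0.018, with 10 fold changes below 0 and 8 above, and it ran from -0.107 to 0.0479 with 1 library left out. Ezh2, the methyltransferase of PRC2, was at 105, 118 and 114 CPM in the WT and 127, 126 and 141 CPM in the KO libraries, a log2 ratio of 0.22 ± 0.0879 (SE, adjusted p = 0.629). Of 12 genes beside Nsd2 on chromosome 5 none passed the test, the median was 0.145, the KO libraries all lay above the WT libraries for 5 (background 7.95%), and 2 were higher at an unadjusted p under 0.05 (background 3.58%), Haus3 with 0.39 ± 0.109 (SE, adjusted p = 0.5) and Slbp with 0.22 ± 0.092 (SE, adjusted p = 0.651). Of 20 p53 targets 1 was lower and 3 higher, and of 45 imprinted genes 1 was lower and 1 higher, beside 3.89% and 3.58% of all genes.

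Among markers of other cell types and regions, no list had more than 2 members past an unadjusted p of 0.05 in 1 direction, and none had a call. Neurod4, a proneural factor, was lower, at 3.78, 4.99 and 4.65 CPM in the WT and 1.27, 2.399 and 1.87 CPM in the KO libraries, a log2 ratio of -1.28 ± 0.259 (SE, adjusted p = 0.284) in edgeR, while 14 of the 16 neurogenic factors had fold changes above 0. Satb1, a factor of interneurons, was at 97.6, 107 and 91.7 CPM in the WT and 82.2, 77.3 and 84.7 CPM in the KO libraries, a log2 ratio of -0.28 ± 0.0875 (SE, adjusted p = 0.546). Of the 24 interneuron and striatal factors, however, 15 had fold changes above 0 and 9 below. Their median was 0.081, and -0.0936 without WT1. Reln, the secreted guide of cortical layering, was at 645, 402 and 285 CPM in the WT and 279, 278 and 244 CPM in the KO libraries, a log2 ratio of -0.73 ± 0.268 (SE, adjusted p = 0.621), with WT1 far above all other libraries. Erythroid genes summed to 2150, 1460 and 1930 CPM in WT and 3230, 2440 and 1820 CPM in KO brains, and markers of choroid plexus to 276, 334 and 328 CPM in WT and 355, 666 and 300 CPM in KO brains. In meninges and fibroblasts the sums were 1710, 831 and 1300 CPM in WT and 932, 1230 and 675 CPM in KO brains. These marker sums overlapped between genotypes, and their part in the results above was not tested. Of 3 metallothioneins tested, which bind zinc, Mt1 and Mt2 were higher at an unadjusted p under 0.05: Mt1 was at 3.44, 5.19 and 5.93 CPM in the WT and 10.3, 8.68 and 9.39 CPM in the KO libraries, a log2 ratio of 0.96 ± 0.205 (SE, adjusted p = 0.31), and Mt2 had 1.06 ± 0.27 (SE, adjusted p = 0.446). The remaining 1 had a fold change below 0. Summed over the metallothioneins the levels overlapped, at 20.9, 33.8 and 38.6 CPM in the WT and 41.1, 36.2 and 38.1 CPM in the KO libraries.

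Small non-coding RNAs were higher in KO1 and KO2 and much less so in KO3. Of 48 small nuclear RNA (snRNA) genes 15 were higher and none lower at an unadjusted p under 0.05 (background 3.58% and 3.89%), with a median log2 fold change of 1.38 (0.867 without KO2), and none passed the test. Relative to the WT mean, the median over these genes was 1.67 and 1.91 (log2 CPM) in KO1 and KO2 but -0.019 in KO3, and -0.291 to 0.274 in the WT libraries. Rnu1b1, a U1 snRNA gene with near-identical copies, was at 2.36, 4.74 and 3.52 CPM in the WT and 18.3, 20.8 and 7.04 CPM in the KO libraries, a log2 ratio of 2.13 ± 0.443 (SE, adjusted p = 0.337) in edgeR. Of 107 small nucleolar RNA (snoRNA) genes 30 were higher and none lower (background 3.58% and 3.89%), with a median of 0.59. Snora74a, which guides pseudouridylation, was at 10.3, 12.5 and 13.9 CPM in the WT and 23.5, 26.3 and 19.997 CPM in the KO libraries, a log2 ratio of 0.93 ± 0.148 (SE, adjusted p = 0.182), and here KO3 also lay above the WT libraries. Snord17 was at 18.9, 18.5 and 19.2 CPM in the WT and 39.5, 40.1 and 25.4 CPM in the KO libraries, a log2 ratio of 0.89 ± 0.17 (SE, adjusted p = 0.282).

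Other RNA that differed between libraries moved with these 2 KO libraries in part. The mitochondrial ribosomal RNAs took 1.17, 3.53 and 0.782% of counts in WT and 5.41, 6.05 and 1.24% in KO brains. Rn18s-rs5, a copy of the ribosomal RNA region chosen after its values were seen, was at 36.7, 261 and 3.71 CPM in the WT and 397, 1768 and 8.13 CPM in the KO libraries. KO1, KO2 and WT2 were thus high in both, and KO3, WT1 and WT3 low. Processed pseudogenes, retrocopies that often share reads with their parent genes, had 81 higher and 6 lower among 930 at an unadjusted p under 0.05 (background 3.58% and 3.89%, median 0.22). Of 80 cytosolic ribosomal protein genes 17 were higher and 1 lower (background 3.58% and 3.89%, median 0.16, and 0.0929 without WT1, 0.278 without WT3 and 0.0864 with the Hox level), led by Rps27a, at 111, 124 and 141 CPM in the WT and 172, 167 and 156 CPM in the KO libraries, a log2 ratio of 0.40 ± 0.105 (SE, adjusted p = 0.463). In males the median of the ribosomal protein genes was -0.04. The part of RNA recovery in these differences was not tested.

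Long genes were lower more often than short ones. When 15057 protein-coding genes were split into 5 groups by their span in the annotation, the longest group, of 78.9 kb and more, held 346 lower and 47 higher genes at an unadjusted p under 0.05 (11.5% and 1.56%), and its median was -0.09. The shortest group, up to 8.18 kb, held 71 lower and 113 higher genes (2.36% and 3.75%), with a median of 0.043, which was 0.00017 without WT1, 0.0135 without WT2, 0.103 without WT3, 0.0252 without KO3 and -0.00901 with the Hox level as a covariate. In males the medians of the longest and shortest groups were -0.02 and -0.043, in the reverse order. Calls in males at an adjusted p under 0.05 (edgeR) nevertheless differed by span. They numbered 39 lower and 3 higher among 3004 of the longest genes, and 5 lower and 16 higher among 2952 of the shortest. Over all 18210 genes tested in both sexes there were 61 lower and 23 higher. Of the called genes Lrfn5 is in the longest group and the beta protocadherins are in the shortest. The medians of the longest group relative to WT were 0.0576, 0.0317 and -0.0662 (log2 CPM) in the WT libraries and -0.0576, -0.0754 and -0.109 in the KO libraries, so that WT3 lay among the KO libraries and apart from the other WT libraries. Without WT1 the median of the longest group was -0.057 and with the Hox level as a covariate -0.045. Kcnd2, Gria4, Dlgap1 and Pcdh11x are in this group as well, with spans of 514.303, 378.339, 852.341 and 620.361 kb. The gene lists above were set beside all genes and not beside genes of like span. The part of span in the lower synaptic, receptor and channel lists was not tested.

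**Figure D5:**
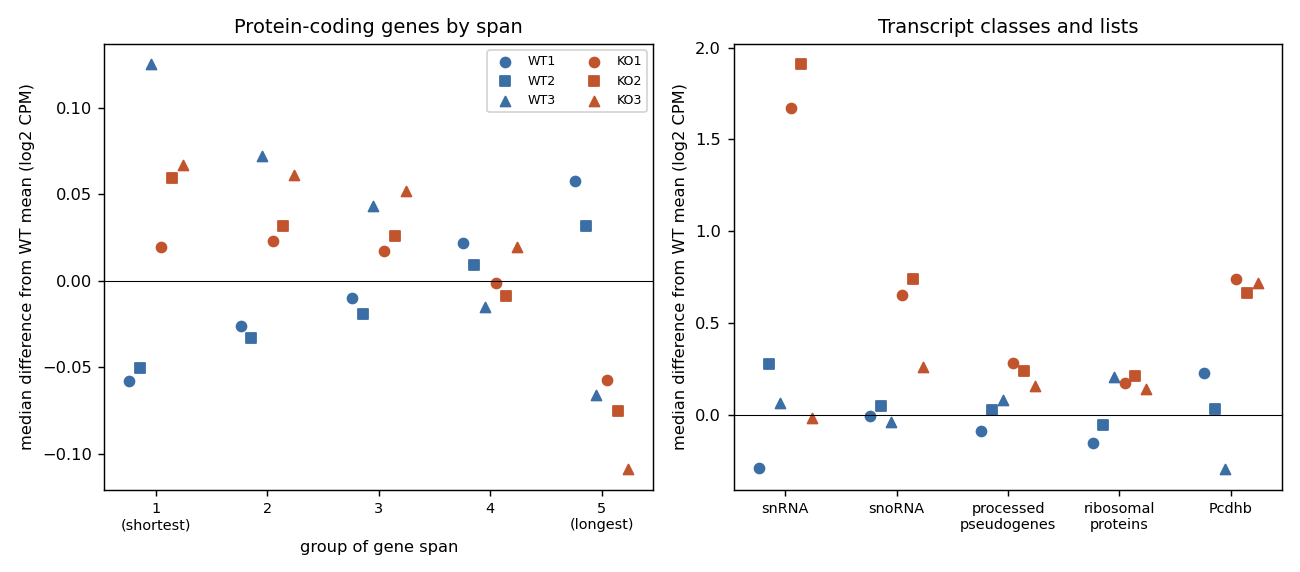
Median difference of each female library from the WT mean (log2 CPM) for protein-coding genes in 5 groups of span (left) and for snRNA, snoRNA, processed pseudogenes, ribosomal protein genes and beta protocadherins (right). Blue marks are WT and orange marks KO libraries, with shapes for replicates 1 to 3. In the longest genes WT3 sits with the KO libraries, snRNA is high in KO1 and KO2 alone, and the beta protocadherins are high in all 3 KO libraries.

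The 6 male libraries of the study share no library with the female ones, and the same fit called 63 lower (0.335%) and 23 higher genes (0.122%) in them, Nsd2 left out. Of the 16 called or leading lower genes of females all 16 had the same sign in males and 10 were called there. Of the 12 higher genes 11 had the same sign and 7 were called. Lrfn5 had a male log2 fold change of -1.99 ± 0.14 (SE, adjusted p = 0.00174), Pcdhb10 one of 1.61 ± 0.124 (SE, adjusted p = 0.00173) and Pcdhb11 one of 1.26 ± 0.111 (SE, adjusted p = 0.00371) in edgeR. Snrpe and Lsm8 had 0.046 ± 0.114 (SE, adjusted p = 0.909) and 0.16 ± 0.129 (SE, adjusted p = 0.676) in males, and Hoxd8 had -0.87 ± 0.592 (SE, adjusted p = 0.594), opposite in sign. The spread between female replicates was the wider one, with a common coefficient of biological variation of 0.206 against 0.159 in males. A test of the difference between the sexes over 19718 genes called 0 genes in edgeR, with 886 (4.49%) past an unadjusted p of 0.05, against 986 at 5%, so no gene here is shown to respond in females only. DESeq2 called 5 for this difference. In edgeR the smallest p values for this difference were those of Hoxd8, Gm10687, Ndufb5, Hoxc8 and Pcdha12, each at an adjusted p of 0.907. Pcdha12, at -0.76 ± 0.131 (SE) in females, had -0.05 ± 0.101 (SE, adjusted p = 0.883) in males.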

How the data were processed

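RNA was sequenced from brain at embryonic day 15.5 after removal of ribosomal RNA. The deposited values are whole read counts per gene without normalization. To make them the authors trimmed reads to 75 bases, used cutadapt 2.6, HISAT2 2.1.0 (GRCm38), StringTie 2.0.6 and Ensembl 81 transcripts, and derived counts from coverage, so near-identical genes can share or lose reads. Which library had which depletion kit or sequencer, and the strand setting of the counting, are not given in the sources used here.

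Genes with at least 10 counts in at least 3 of the 6 female libraries were tested with edgeR 4.0.16 in R 4.3.3 (TMM, robust quasi-likelihood F test, Benjamini-Hochberg adjusted p under 0.05). The SE of a log2 fold change is its size divided by the square root of F. The script was tested on simulated data. CPM use TMM library sizes, and log2 CPM a prior count of 2. The smallest library held 40398665 counts. Counting error is large for genes under 1 CPM. Samples were grouped by the labels' sex and genotype. They were labelled as separate samples, and p-values measure the spread between them.

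Genes named are Nsd2, Actb, the called genes, the 15 lower and 10 higher uncalled genes of smallest p without overlap, the genes the study names for RNA, and the members of smallest p or highest level of each list. Others are said to be chosen after their values were seen. Some genes that this rule picks are not reported here. The members and the 47 gene lists were chosen with earlier results of these data known. Positions, spans and classes came from GENCODE M21, matched for 18708 tested genes. For the female fit 17 alternative settings were tried, the Wald test of DESeq2 1.42.0 among them. Figures were drawn with Python 3.11.15.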

Additional observations from a re-analysis of the deposited data

How the results depend on the processing

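The number of DEGs depended on the test and on single libraries, while the fold changes of the called genes varied little. Against 1 lower and 2 higher genes in edgeR's quasi-likelihood test, DESeq2's Wald test called 130 and 54 (3671 adjusted p were not given), edgeR's exact test 62 and 31, its likelihood ratio test 65 and 32, and a spread taken over all 12 libraries 28 and 10. With small RNAs, histones and mitochondrially encoded genes left out there were 3 lower genes, and without a filter 4. Leaving out 1 library at a time gave 0 to 33 lower and 0 to 22 higher genes: none without WT1, WT2 or KO1, 33 and 4 without WT3, 4 and 0 without KO2, and 4 and 22 without KO3. The 22 without KO3 include snRNA, snoRNA and pseudogene entries. The Hox level in the model, an alternative added once the data had been seen, left 0 lower and 1 higher. RLE normalization, filterByExpr and a filter of more than 1 CPM gave 1 and 2. Lrfn5 was called under 12 of 17 alternatives, Pcdhb10 under 11 and Pcdhb11 under 12. For the difference between the sexes DESeq2 called 5 genes, and leaving out 1 library gave 0 to 44, with 44 without female WT3, 22 without female KO3 and 1 without male KO3. The causes were not tested.

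The deviations of same-numbered WT and KO libraries from their group means correlated at 0.0534, -0.0565 and 0.216. Over all pairings of a WT with a KO library the correlations ran from -0.257 (WT3 with KO1) to 0.246 (WT2 with KO1). With the replicate block 0 genes were lower and 0 higher (edgeR, 1053 at an unadjusted p under 0.05). WT3 and KO3 correlated best with each other, whereas WT2 and KO2 did not, and KO1 correlated best with WT2. With so few libraries these correlations cannot settle whether the numbers pair the samples.

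Directions turned for 3 uncalled genes near 0: Actb to -0.00104 without WT1 (up to 0.0772 without WT2), Nsd1 to 0.0788 with the Hox level, and Sorbs2 to 0.0104 with the replicate block, 0.0251 without WT1, 0.126 without WT2, 0.0242 without KO2 (down to -0.173 without WT3) and 0.155 with the Hox level (log2 fold changes). The median of the beta protocadherins stayed at 0.529 to 0.796 over the libraries left out, that of synaptic adhesion molecules at -0.309 to -0.182, and that of snRNA at 0.867 to 1.84.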

Other observations

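Several uncalled genes had large fold changes that rested on 1 or 2 libraries, and were chosen after their values were seen. Gm20633 was at 2.24, 138 and 2.69 CPM in the WT and 2.02, 2.14 and 2.403 CPM in the KO libraries, a value that only WT2 raised. Gm13370, Gm10163 and Gm10240 were at 18.4, 0.518 and 0.499 CPM, 18.5, 0.753 and 0.647 CPM and 17.2, 0.941 and 0.795 CPM in KO1, KO2 and KO3, high in KO1 alone. Gm6969 was at 0.182, 0.125 and 0.198 CPM in the WT and 11.5, 12.7 and 0.148 CPM in the KO libraries, high in KO1 and KO2. Their adjusted p in edgeR were 0.584 to 0.716.

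Nuclear-encoded respiratory chain genes, which the report does not cover, had 5 of 77 higher and none lower at an unadjusted p under 0.05 (background 3.58% and 3.89%), with a median log2 fold change of 0.12 in females and -0.13 in males. The female median was 0.057 without WT1 or WT2, 0.244 without WT3 and 0.0329 with the Hox level in the model. Ndufb5, a subunit of complex I, was at 36.05, 35.95 and 37.7 CPM in the WT and 46.8, 47.8 and 41.4 CPM in the KO libraries, with a log2 ratio of 0.31 ± 0.0848 (SE, adjusted p = 0.468) in edgeR and -0.11 ± 0.0623 (SE, adjusted p = 0.515) in males. Clustered histone genes had a median of 0.14, which was -0.046 without WT1, 0.22 without WT2, 0.32 without WT3, 0.0307 without KO3 and 0.0342 with the Hox level. Crabp2, a binding protein of retinoic acid, was at 7.31, 6.69 and 7.71 CPM in the WT and 9.98, 13.3 and 15.3 CPM in the KO libraries, with a log2 ratio of 0.83 ± 0.168 (SE, adjusted p = 0.284), and every KO library lay above every WT library. Of 17 genes of the retinoic acid pathway 9 had fold changes below 0 and 8 above, with a median of -0.009. Genes of the cell cycle and replication had 30 of 34 fold changes above 0 and a median of 0.12, which was 0.0113 without WT1, 0.241 without WT2, 0.19 without WT3, 0.194 without KO2 and 0.0429 without KO3, with 0 at an unadjusted p under 0.05. X-linked protein-coding genes, 525 in all, had a median of -0.0048, beside 0.0025 for all protein-coding genes.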
